A study of Homo sapiens with 28 samples.

Results

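The dose trend described here is the change in chromatin accessibility across 7 populations of Kuramochi cells, each adapted to a different dose of olaparib. It covers 14 of the series' 28 samples, 2 replicates of each population, which are 14 of the 20 columns of the deposited consensus peak table. Kuramochi is an established ovarian cancer cell line that carries a BRCA2 mutation, and no other allele is named. Each population is named T followed by its dose in uM (5, 10, 20, 40, 80, 160 or 320), to which it had adapted and in which it was kept, and all were sorted for low CD24 and high CD44. The untreated and the briefly exposed cells in the same table were left out, so every statement concerns the order among adapted populations and none compares them with drug-naive cells. There is 1 population per dose. The labels do not say whether its 2 replicates were separate cultures, nor whether each population was derived from the one below it, so what is particular to a population and what goes with its dose cannot be told apart.

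Olaparib blocks the PARP enzymes, which help to repair DNA breaks, and cells that lack BRCA2 depend on this repair because homologous recombination fails in them. Such cells can become resistant when grown in the drug for a long time. ATAC-seq reads this on the level of chromatin: a transposase cuts where DNA is open, so reads pile up at promoters, which lie at gene starts and are open in most cell types, and at distal elements such as enhancers, whose opening differs more between cell states. Reads at a peak also scale with the number of DNA copies, and copy number and accessibility cannot be told apart in these counts.

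The table holds 105048 peaks with a median width of 1119 bp. Each was fitted with a straight line against log2 of the dose, using the counts of each population summed over its replicates, so a slope is in log2 units per doubling of the dose. A peak was called rising or falling at a Benjamini-Hochberg adjusted p under 0.05 in edgeR's quasi-likelihood test over all peaks and a slope of at least 0.25 in size. Levels are given in CPM, read counts scaled for depth with TMM-scaled library sizes, and a pair of values gives replicate 1 and then replicate 2. Library totals lay between 9627970 and 28547221 counts in peaks, and replicate 2 was the deeper library in every population. Promoter peaks, which here means peaks within 1 kb of a RefSeq start of a protein-coding gene, held between 23.9% and 30.0% of the counts. This share showed no detectable relation to log2 dose over the 7 populations (Pearson r = 0.247, exact two-sided permutation p = 0.594; Spearman rho = 0.143, exact p = 0.783). Both p-values adjusted over this share and the total count were equal to the raw ones, and without T5 and T320 Pearson r was 0.321.

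The sequences of the promoters with the steepest slopes are shown first, to set rising beside falling windows. They are the 300 bases from 250 before to 50 after the gene start, from RefSeq on GRCh38.p14, written 5′ to 3′ on the gene's strand. Capitals mark matches, on either strand, to 1 of 9 motifs: AP-1 (TGANTCA), CRE (TGACGTCA), the ATF4 and C/EBP composite (TGATGNAAN), the antioxidant response element (TGACNNNGC), the E-box (CACGTG), TEAD (ACATTCC), NF-Y (CCAAT), the GC box (GGGCGG) and ETS (CCGGAA). The first 3 rose, and the last 3 fell. DHRS9 lies at chr2:169069313-169069612 on the plus strand, ZNF492 at chr19:22634074-22634373 on the plus strand, HRH1 at chr3:11136988-11137287 on the plus strand, FBXO47 at chr17:38967354-38967653 on the minus strand, FBXO17 at chr19:38952638-38952937 on the minus strand and ADPRHL1 at chr13:113449109-113449408 on the minus strand. The called peak covers the whole window in all of them but DHRS9, where it covers 196 bases.
DHRS9: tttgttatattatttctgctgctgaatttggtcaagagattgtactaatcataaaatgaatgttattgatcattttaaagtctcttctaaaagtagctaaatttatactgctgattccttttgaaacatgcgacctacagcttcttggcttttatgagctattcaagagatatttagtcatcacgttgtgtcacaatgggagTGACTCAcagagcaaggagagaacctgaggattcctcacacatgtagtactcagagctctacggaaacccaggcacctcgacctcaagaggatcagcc
ZNF492: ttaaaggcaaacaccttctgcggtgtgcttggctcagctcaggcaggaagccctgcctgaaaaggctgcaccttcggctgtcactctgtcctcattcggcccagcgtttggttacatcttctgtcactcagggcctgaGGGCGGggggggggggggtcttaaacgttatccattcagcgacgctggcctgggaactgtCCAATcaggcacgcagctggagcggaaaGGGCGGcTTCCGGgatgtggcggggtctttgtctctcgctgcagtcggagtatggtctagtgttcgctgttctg
HRH1: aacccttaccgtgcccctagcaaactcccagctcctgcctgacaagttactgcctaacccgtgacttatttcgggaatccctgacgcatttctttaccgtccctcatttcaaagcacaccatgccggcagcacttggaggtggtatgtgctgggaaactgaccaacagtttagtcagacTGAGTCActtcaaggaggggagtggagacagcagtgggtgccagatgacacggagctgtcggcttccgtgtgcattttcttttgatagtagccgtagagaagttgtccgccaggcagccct
FBXO47: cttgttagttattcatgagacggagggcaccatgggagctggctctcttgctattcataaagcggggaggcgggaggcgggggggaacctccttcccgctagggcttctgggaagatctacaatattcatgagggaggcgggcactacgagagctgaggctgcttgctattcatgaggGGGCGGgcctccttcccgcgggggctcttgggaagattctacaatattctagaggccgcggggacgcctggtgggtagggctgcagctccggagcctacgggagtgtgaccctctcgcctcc
FBXO17: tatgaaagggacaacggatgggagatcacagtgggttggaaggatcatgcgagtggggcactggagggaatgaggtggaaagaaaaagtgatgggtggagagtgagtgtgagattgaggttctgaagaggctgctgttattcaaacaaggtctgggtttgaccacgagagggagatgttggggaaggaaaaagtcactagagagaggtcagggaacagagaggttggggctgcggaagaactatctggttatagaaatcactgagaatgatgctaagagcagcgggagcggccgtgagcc
ADPRHL1: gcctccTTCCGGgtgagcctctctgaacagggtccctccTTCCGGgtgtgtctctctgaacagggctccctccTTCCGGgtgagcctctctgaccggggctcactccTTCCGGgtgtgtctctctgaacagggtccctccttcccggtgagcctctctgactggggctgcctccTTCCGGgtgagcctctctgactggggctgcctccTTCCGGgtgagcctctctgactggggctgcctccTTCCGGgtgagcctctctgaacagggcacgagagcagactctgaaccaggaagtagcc
DHRS9 and HRH1 each hold 1 AP-1 match, just before the start. ADPRHL1 holds 7 ETS matches in a tandem repeat, and FBXO17 holds no match to any of the 9 motifs. RAET1E is also among the 4 steepest rises. The window found for it is not printed because it lies beside its steepest peak and not in it.

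Over all peaks, 3535 rose with the dose, which is 3.37% of the peaks tested, and 2470 fell, which is 2.35%. The rise and the fall had different shapes. Rising peaks had a median of 1.72 CPM at 5 uM, 2.43 at 10 uM, 3.02 at 20 uM, 3.9 at 40 uM, 4.74 at 80 uM, 4.66 at 160 uM and 8.77 at 320 uM. Their median step was between 0.25 and 0.36 log2 units at each doubling up to T80, near 0 from T80 to T160 (-0.012) and 0.80 from T160 to T320. Falling peaks had a median of 7.30 CPM at 5 uM, 4.93 at 10 uM, 3.28 at 20 uM, 2.56 at 40 uM, 2.29 at 80 uM, 2.35 at 160 uM and 1.77 at 320 uM. Most of their loss came early: 1618 of the 2470 falling peaks made over 50% of their change between T5 and T20, against 794 of the 3535 rising peaks. T320 was the highest population in 3404 rising peaks and the lowest in 1538 falling peaks. A move in the same direction at all 6 steps was seen in 430 rising and 130 falling peaks.

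**Figure D1:**
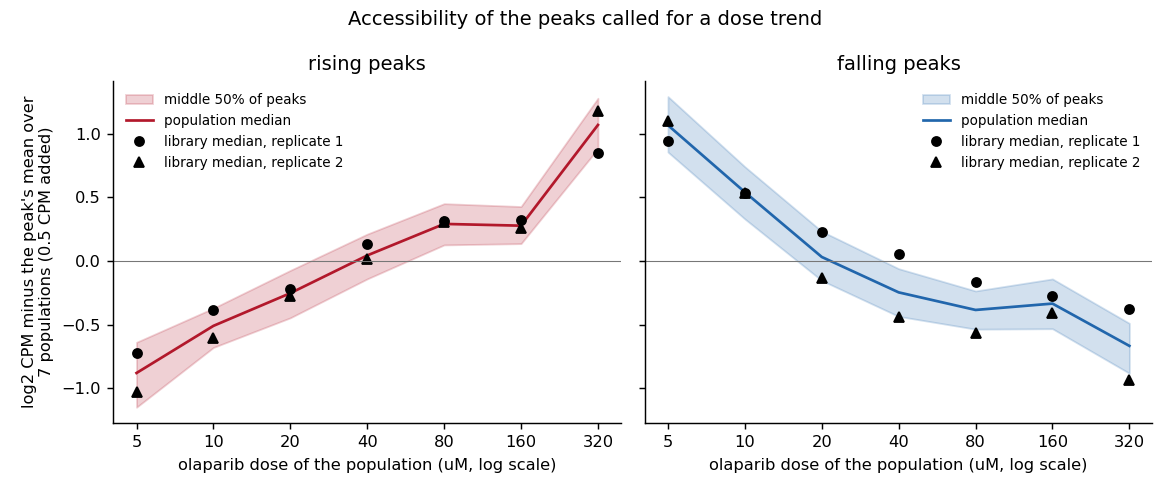
Log2 CPM of the called peaks, with 0.5 CPM added and each peak's mean over the populations removed (vertical axis), against the dose of the population in uM on a log2 scale (horizontal axis). Lines are the medians over 3535 rising and 2470 falling peaks in the summed counts, shading spans their middle 50%, and circles and triangles are the medians in the replicate 1 and replicate 2 libraries. Rising peaks climb in steps and jump at T320, while falling peaks drop mostly before T20.

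Both replicates gave the same direction: fitted on replicate 1 alone or on replicate 2 alone, all 3535 rising peaks kept a positive slope and all 2470 falling peaks a negative one, although these libraries had taken part in the calls. Called apart, replicate 1 gave 2173 rising and 1633 falling peaks and the deeper replicate 2 gave 3578 and 2501. Of the replicate 1 rising calls 71.5% were also called in replicate 2, and of the replicate 2 rising calls 43.4% in replicate 1. For falling calls these shares were 47.0% and 30.7%. P-values here measure only the spread among these populations. From T20 on, the median of the falling peaks, relative to their mean, was lower in replicate 2 than in replicate 1 of every population. It was 0.23 and -0.13 log2 units at 20 uM, 0.059 and -0.44 at 40 uM, -0.16 and -0.56 at 80 uM, -0.27 and -0.41 at 160 uM and -0.37 and -0.93 at 320 uM.

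The number of calls depended most on T320. Without T320, 640 peaks rose and 1033 fell, of which 597 and 665 had been called before, and without T5, 2953 rose and 1129 fell. All 6005 called peaks kept the sign of their slope without T320, although the remaining populations had taken part in the calls. Their median slope was then 0.28 for the rising ones, against 0.32 with T320, and -0.33 for the falling ones, against -0.31. Without T320 replicate 2 alone, 2518 rose and 1309 fell. Leaving out T160 raised the counts to 4728 and 4426. Leaving out T10 gave 2513 and 1632, and leaving out T80 gave 2793 and 1394. With scaling factors taken from promoter peaks alone, the balance turned: 2646 rose and 2905 fell, so that 47.7% of the calls were rises, against 58.9% with all peaks. With the dose on a linear scale, 83.1% of the calls were rises (2761 against 562 falls).

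T160 did not sit between its neighbours at many places. It lay below T80 in 1826 of the 3535 rising peaks and above T80 in 1374 of the 2470 falling peaks. The median step from T80 to T160 was also near 0 over all peaks (-0.0024 log2 units). The share of all peaks below T80 was not counted, so these counts do not set the called peaks apart. Over all peaks, the median absolute log2 difference between T160 and T5 was 0.387, smaller than those between T5 and T40 (0.462), T80 (0.448) or T320 (0.517). The nearest population to T160 was T80 (0.209) and the next was T10 (0.261). CDKN2A, the gene of the cell cycle inhibitors p16 and p14ARF, was read at 1 promoter peak, chr9:21993963-21997043. Whether this peak serves both products was not tested. The peak showed the same return. It had 26.3 and 28.0 CPM at 5 uM, 16.3 and 16.8 at 10 uM, 9.92 and 3.15 at 20 uM, 0.801 and 0.204 at 40 uM, 4.93 and 4.59 at 80 uM, 12.2 and 15.2 at 160 uM and 0.943 and 0.179 at 320 uM. It was thus near 0 at T40 and T320 and well above it in both libraries of T160. CDKN2B, its neighbour and also an inhibitor of the cell cycle, followed it with 26.1 CPM in the summed T5 counts, 0.295 in T40, 12.3 in T160 and 0.559 in T320. Neither was called for a slope (-0.41 ± 0.22 (SE), edgeR adjusted p = 0.231, for CDKN2A, and -0.43 ± 0.22 (SE), adjusted p = 0.217, for CDKN2B).

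Few promoter peaks were called. Of 12129 promoter peaks, 59 rose (0.486%) and 64 fell (0.528%). Of 63817 peaks within or beside a gene, 2289 rose (3.59%) and 1647 fell (2.58%), and of 29102 distal peaks, over 1 kb from every gene, 1187 rose (4.08%) and 759 fell (2.61%). The promoter table lacks a start for 4158 of the protein-coding genes, whose promoters are therefore counted among the peaks within or beside a gene. With each of 14794 genes reduced to its strongest promoter peak, or to a peak at either gene end where no start is given, 58 genes rose (0.392%) and 62 fell (0.419%). Called peaks were also not the strong ones: rising and falling peaks had median mean levels of 4.23 and 3.67 CPM, against 5.55 CPM over all peaks. With no minimum on the slope, 348 promoter peaks rose and 197 fell, against 6584 and 4839 of all peaks. Median slopes were 0.021 for promoter peaks and -0.011 for distal peaks. Without T320, 15 promoter peaks rose and 24 fell.

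**Figure D2:**
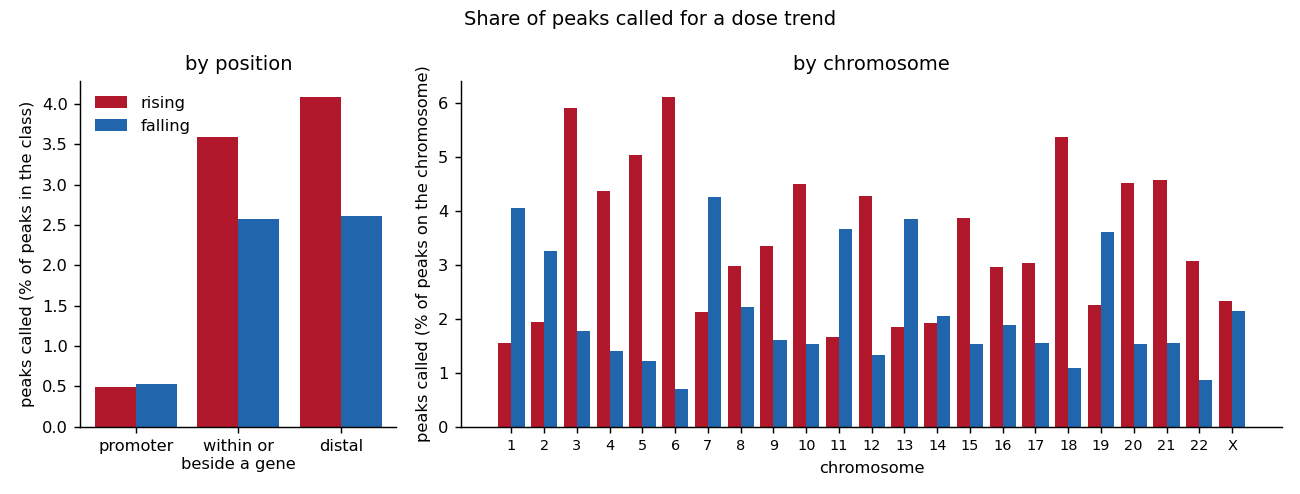
Share of peaks called for a dose trend, in percent of the peaks of each class (left) and of each chromosome (right), red for rising and blue for falling peaks. Promoter peaks are at 0.486% and 0.528%, far below the other classes, and rising peaks are the most frequent on chromosomes 6 and 3, falling ones on chromosomes 7 and 1.

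The 10 promoter peaks with the steepest rises, among those with at least 2 CPM in the highest population, belonged to DHRS9, ZNF492, HRH1, RAET1E, ZNF730, VGLL4, CADPS, TRPV1, SORBS2 and STAC, with slopes between 0.37 and 0.51. DHRS9 encodes a dehydrogenase of retinoids and steroids. Its peak had 0.534 and 0.279 CPM at 5 uM, 0.948 and 0.704 at 10 uM, 2.00 and 1.05 at 20 uM, 2.71 and 0.511 at 40 uM, 2.12 and 1.26 at 80 uM, 2.68 and 1.94 at 160 uM and 3.0 and 6.06 at 320 uM. Both T320 libraries were above all the others, and the T40 libraries were far apart. The slope was 0.51 ± 0.073 (SE) with an adjusted p of 0.00505 in edgeR's test, and the summed T320 level was 13.4-fold that of T5.

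HRH1 encodes the histamine H1 receptor. Its promoter had 3.56 and 2.33 CPM at 5 uM, 12 and 11.2 at 10 uM, 12 and 19.6 at 20 uM, 16.6 and 24.2 at 40 uM, 23.5 and 29.8 at 80 uM, 27.7 and 24.4 at 160 uM and 28.5 and 41.3 at 320 uM. The largest proportional step was the first, from T5 to T10, and T320 was 13.2-fold that of T5 (slope 0.46 ± 0.089 (SE), edgeR adjusted p = 0.0124). VGLL4, which binds TEAD factors in competition with YAP, is a near neighbour. Its promoter peak at chr3:11568005-11569806 lies in the same 5 Mb window as that of HRH1 at chr3:11136601-11137835, so the 2 are not separate regions. Its promoter had 3.97 and 5.12 CPM at 5 uM, 13.1 and 12.1 at 10 uM, 10.8 and 12.1 at 20 uM, 13.4 and 13.9 at 40 uM, 18.2 and 20.2 at 80 uM, 20.5 and 19.4 at 160 uM and 36.9 and 42.6 at 320 uM. It moved in 2 jumps, at T10 and at T320, with replicates close together throughout (slope 0.40 ± 0.058 (SE), edgeR adjusted p = 0.00525).

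ZNF492, a zinc finger gene of chromosome 19, was a case of a single jump. Its promoter had between 0.665 and 2.21 CPM in the 12 libraries from T5 to T160, and 7.71 and 8.08 CPM in T320. Without T320 its slope fell from 0.48 to 0.18 (adjusted p = 0.175). RAET1E, a ligand of the NKG2D receptor of killer lymphocytes, rose more evenly. Its steepest peak had 1.79 CPM at 5 uM in the summed counts, 2.53 at 10 uM, 4.45 at 20 uM, 7.18 at 40 uM, 8.40 at 80 uM, 7.46 at 160 uM and 11.7 at 320 uM (slope 0.43 ± 0.064 (SE), edgeR adjusted p = 0.00557). Another promoter peak of RAET1E, with AP-1 letters, also rose, from 3.48 CPM in T5 to 21.2 in T320 (slope 0.34, adjusted p = 0.00928). TRPV1, the cation channel opened by heat and capsaicin, rose from 1.19 CPM in T5 to 4.98 in T10 and 12.4 in T320. SORBS2, an adaptor of the actin cytoskeleton, stayed near 2.1 CPM in T5 and T10 and reached 11.3 in T320. CADPS, a factor of vesicle release, peaked at T80 with 12.5 CPM and had 10.8 in T320.

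The 10 steepest falls were at FBXO47, FBXO17, ADPRHL1, KLHL4, CLDN15, MCF2L, WT1, HIP1, CST5 and PRX, with slopes between -0.63 and -0.39. FBXO47 encodes an F-box protein known from meiosis. Its promoter had 13.3 and 15.3 CPM at 5 uM, 17.6 and 20.0 at 10 uM, 5.17 and 6.02 at 20 uM, 5.11 and 3.37 at 40 uM, 2.46 and 1.46 at 80 uM, 2.39 and 1.26 at 160 uM and 2.49 and 1.66 at 320 uM. The level was higher in T10 than in T5, with no overlap, dropped at T20 and was low from T80 on (slope -0.63 ± 0.089 (SE), edgeR adjusted p = 0.00493).

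FBXO17, another F-box gene, had 15.5 and 18.6 CPM at 5 uM, 13.2 and 11.8 at 10 uM, 8.50 and 4.31 at 20 uM, 4.41 and 2.20 at 40 uM, 4.93 and 1.71 at 80 uM, 3.8 and 2.30 at 160 uM and 1.89 and 1.12 at 320 uM. T5 was 12.7-fold that of T320, with a slope of -0.58 ± 0.065 (SE) and an adjusted p of 0.00370. CLDN15, a claudin of tight junctions, had 23.2 CPM at 5 uM in the summed counts, 27.9 at 10 uM, 13.0 at 20 uM, 12.2 at 40 uM, 7.88 at 80 uM, 8.88 at 160 uM and 3.44 at 320 uM. HIP1, a protein of clathrin-coated vesicles, dropped mainly between T10 (23.4 CPM) and T20 (7.70) and had 4.0 CPM in T320.

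WT1, a transcription factor of the gonadal lineage and a usual marker of serous ovarian carcinoma, has 2 promoter peaks, with slopes of -0.42 and -0.12. The smaller one, at chr11:32430570-32431420 inside the gene, was called. It had 5.28 and 5.81 CPM at 5 uM, 4.52 and 1.57 at 10 uM, 1.83 and 2.87 at 20 uM, 2.61 and 2.35 at 40 uM, 1.95 and 1.71 at 80 uM, 1.27 and 0.994 at 160 uM and 1.37 and 0.449 at 320 uM (slope -0.42 ± 0.063 (SE), edgeR adjusted p = 0.00584). The larger one, at chr11:32433509-32436960, went from 32.6 CPM in T5 to 18.1 in T320 with a slope of -0.12 ± 0.033 (SE). It passed the test (adjusted p = 0.0455) but not the slope minimum. The difference between the 2 peaks was not tested.

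**Figure D3:**
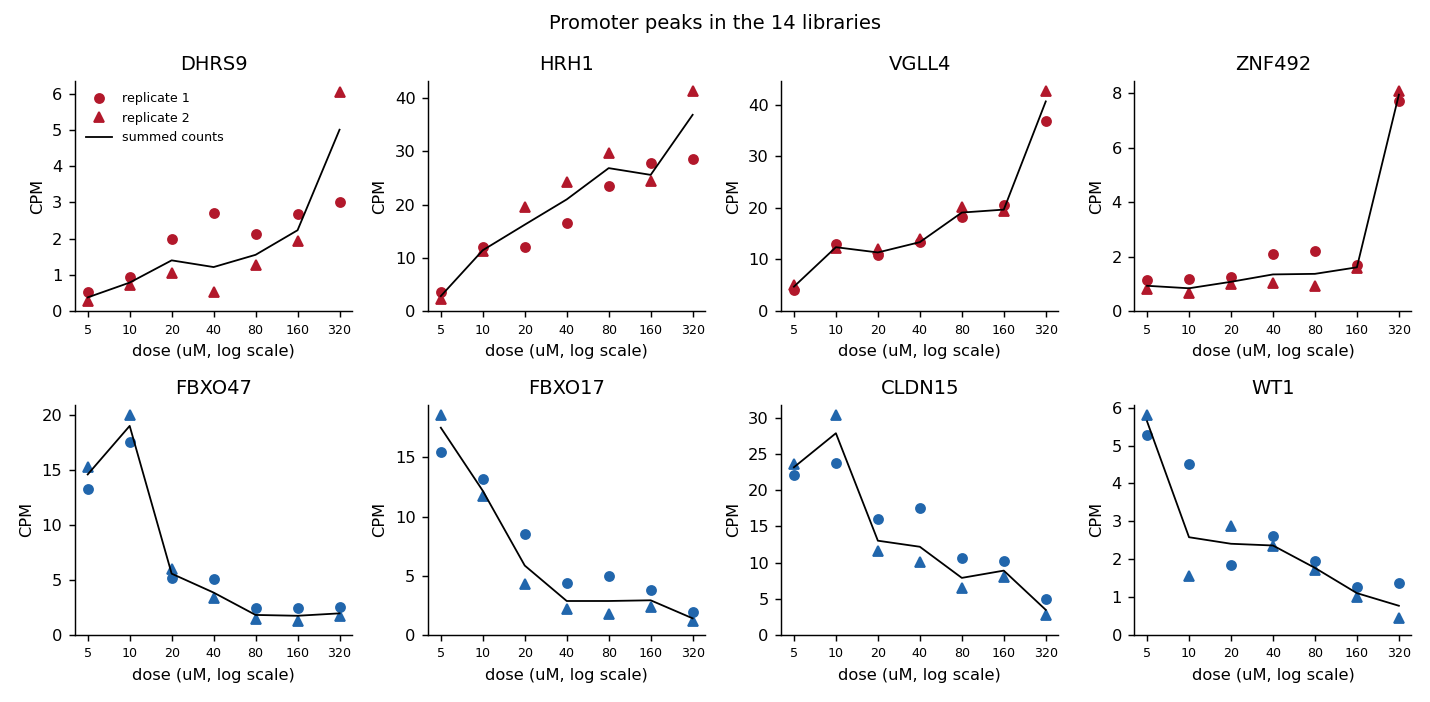
CPM of 8 promoter peaks in each of the 14 libraries (vertical axis, starting at 0) against the dose in uM on a log2 scale (horizontal axis). Circles are replicate 1, triangles replicate 2, and the line follows the summed counts. The upper row rose, with ZNF492 at 7.71 and 8.08 CPM in T320 and low before, and the lower row fell, with FBXO47 dropping between T10 and T20.

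Of the 10 steepest rises, 1 was still called without T320 (RAET1E) and 6 without T5 or without T10, and of the 10 steepest falls 6 were called without T320. Without T320 the call ended for DHRS9, ZNF492, HRH1, ZNF730, VGLL4, CADPS, TRPV1, SORBS2, STAC, ADPRHL1, KLHL4, MCF2L and HIP1. Apart from ZNF492, the smallest of their slopes without T320 was that of SORBS2, 0.29. Leaving out T320 replicate 2 ended the call for ZNF730, STAC, ADPRHL1, KLHL4 and CST5. Leaving out T5 replicate 1 ended it for TRPV1. With the 14 libraries fitted singly and the replicate number as a block, all 20 were called. That fit takes the 2 libraries of a population as separate dose points, so its p-values may be too small for a dose trend.

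The rising promoters had AP-1 letters more often than other promoters. AP-1 is the family of FOS and JUN dimers that respond to growth factors and stress. A match to TGANTCA was present in 20 of 60 rising promoter windows (33.3%), in 4 of 65 falling ones (6.15%) and in 678 of all 13370 promoter windows with a peak (5.07%). In 18 of the 20 genes a match lay inside the called peak. The windows also differed in base composition: median GC content was 56.5% in rising, 60.7% in falling and 65.3% in all windows, and its part in the AP-1 share was not tested. Motifs rich in G and C were rarer in both called groups. The GC box was found in 40.0% of rising and 43.1% of falling windows against 68.4% of all, and the ETS letters in 11.7% and 6.15% against 26.6%. NF-Y letters were found in 40.0%, 26.2% and 35.7%. The antioxidant response letters were found in 8.33% and 15.4% against 14.9%, and the E-box in 6.67% and 0% against 9.5%. CRE letters were in none of the called windows and in 3.0% of all. The ATF4 and C/EBP composite was found in 3.33%, 1.54% and 1.83%, and TEAD letters in 1.67%, 4.62% and 2.21%. A match is a run of letters and no measured binding.

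The stretches around the AP-1 letters of 6 of these rising promoters are shown with the letters in capitals, 5′ to 3′ on the gene's strand. They are at chr3:48563865-48563895 for UCN2 (minus strand), chr3:196338584-196338614 for TM4SF19 (minus), chr17:7579526-7579556 for CD68 (plus), chr5:148268715-148268745 for SPINK13 (plus), chr1:209651423-209651453 for LAMB3 (minus) and chr15:51243946-51243976 for CYP19A1 (minus), and they were picked after their values were seen.
UCN2: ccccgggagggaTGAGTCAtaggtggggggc
TM4SF19: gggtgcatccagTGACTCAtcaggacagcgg
CD68: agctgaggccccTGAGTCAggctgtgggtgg
SPINK13: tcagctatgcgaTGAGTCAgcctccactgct
LAMB3: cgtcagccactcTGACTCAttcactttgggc
CYP19A1: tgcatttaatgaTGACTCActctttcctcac
UCN2, a peptide of the corticotropin-releasing family, rose from 4.98 CPM in the summed T5 counts over 6.45, 8.52, 13.5, 14.5 and 14.2 to 25.2 CPM in T320 (slope 0.36 ± 0.044 (SE), edgeR adjusted p = 0.00373). TM4SF19, a tetraspan membrane protein, held 9.61 CPM in T5 and T10 and had 37.1 in T320. LAMB3, a laminin chain of basement membranes, had 2.20 CPM in T5 and 6.39 in T320. CYP19A1, the aromatase that makes oestrogens, had 2.09 and 7.03 CPM. These 4 promoters had their highest level in T320, as most rising peaks did, and they were picked among rising promoters. Their courses differed: LAMB3 was lower in T20 (1.53 CPM) than in T5, and LAMB3 and CYP19A1 still rose from T80 to T160. Without T320 these 2 did not pass edgeR's test (adjusted p = 0.160 and 0.106).

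Most of the trend lay away from the starts of the genes concerned. A called rising peak other than a promoter peak was nearest to 1774 protein-coding genes, within 50 kb. Of these, 1243 had a promoter peak, which was called rising in 11 and had a median slope of 0.049. For falling peaks the numbers were 1275 genes, 854 with a promoter peak, 14 with it called falling, and a median promoter slope of -0.022. Promoter slopes had the same sign as the called peak in 79.8% and 62.9% of the genes. The median slope over all promoter peaks was itself above 0, at 0.021, which favours a match with rising peaks. The share of all promoters with either sign was not counted, so these percentages do not compare rising with falling peaks. The following genes were picked after their values were seen, to show called peaks away from the promoter at single loci.

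MARS1, the methionyl-tRNA synthetase, and DDIT3, the stress transcription factor CHOP, are neighbours on chromosome 12. A peak within MARS1 at chr12:57514408-57517027 had 7.59 and 4.46 CPM at 5 uM, 12.3 and 3.44 at 10 uM, 10.8 and 6.35 at 20 uM, 20.0 and 9.55 at 40 uM, 29.8 and 27.0 at 80 uM, 41.4 and 46.5 at 160 uM and 23.3 and 33.0 at 320 uM. It rose with a slope of 0.53 ± 0.067 (SE; edgeR adjusted p = 0.00389), was highest in T160, and kept its call without T320 (adjusted p = 0.0311). The promoters on either side did not pass the test. The DDIT3 promoter had a slope of 0.056 ± 0.033 (SE; adjusted p = 0.288) and the MARS1 promoter one of 0.082 ± 0.033 (SE; adjusted p = 0.127).

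ARRDC3 encodes an arrestin-like protein that directs receptors to degradation. A peak at chr5:91366555-91369026, within or just beside the gene, had 5.34 and 6.82 CPM at 5 uM, 4.74 and 7.55 at 10 uM, 8.75 and 6.46 at 20 uM, 13.3 and 12.1 at 40 uM, 14 and 21.4 at 80 uM, 24.4 and 30.6 at 160 uM and 25.6 and 52.4 at 320 uM. It rose in an ordered way from T20 on (slope 0.49 ± 0.045 (SE), edgeR adjusted p = 0.00308). Its 2 promoter peaks had slopes of 0.068 and 0.073 (adjusted p = 0.184 and 0.282). GAS6, the ligand of the TAM receptor kinases, had peaks moving both ways: one rose from 0.772 CPM in T5 to 7.06 in T320 (slope 0.53), one fell from 2.69 to 0.824 CPM (slope -0.30, not past the test without T320, adjusted p = 0.0516), and the promoter was at 1.98 and 2.32 CPM (slope 0.038, adjusted p = 0.710).

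PFKFB3, which makes the fructose bisphosphate that speeds up glycolysis, had 5 rising peaks among the 10 nearest to it, with slopes from 0.30 to 0.38. The one at chr10:6274729-6275951 had 3.91 and 4.74 CPM in T5, 14.4 and 17.7 in T320, and 11.8 and 11 in T160. The stronger of its promoter peaks passed the test with a slope of 0.13 ± 0.027 (SE; edgeR adjusted p = 0.0183), under the slope minimum. TGFBI, an extracellular matrix protein induced by TGF-beta, had 6 rising peaks among 15, 3 of them before the gene start, while its promoter had 2.34 CPM in T5, 9.54 in T40 and 7.65 in T320 (slope 0.10, adjusted p = 0.555). CD44, the hyaluronan receptor used for the sort, had 2 rising peaks among 12. The one inside the gene had 2.49 and 2.86 CPM in T5 and 10.0 and 16.1 in T320 (slope 0.40 ± 0.059 (SE), adjusted p = 0.00525). Without T320, 2 of the 5 PFKFB3 peaks and none of those of TGFBI and CD44 passed the test, with adjusted p from 0.0560 to 0.124 for TGFBI and 0.0524 for the CD44 peak inside the gene.

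**Figure D4:**
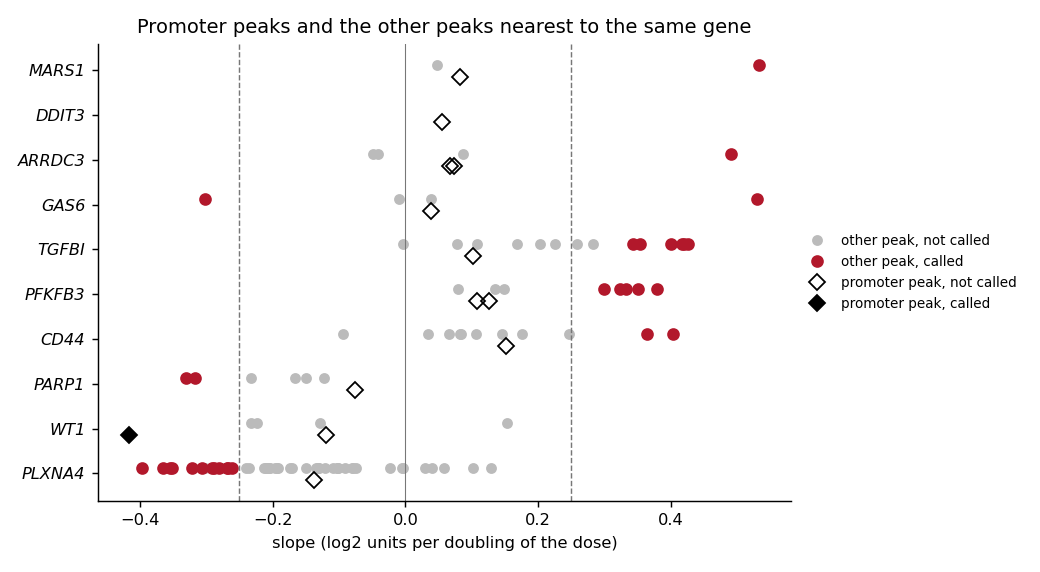
Slopes of all peaks nearest to 10 genes (horizontal axis, log2 units per doubling of the dose), 1 row a gene. Circles are peaks away from the promoter, red where called, and diamonds are promoter peaks, filled where called. Dashed lines mark the slope minimum of 0.25, and the promoters lie inside it except the smaller WT1 promoter peak at -0.42.

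Some genes gathered many called peaks. CDH13, a cadherin without a cytoplasmic tail, had 11 rising peaks among 21 with slopes from 0.28 to 0.54, and their median was 1.01 CPM at 5 uM, 2.50 at 10 uM, 3.25 at 20 uM, 7.08 at 40 uM, 6.91 at 80 uM, 6.39 at 160 uM and 9.83 at 320 uM. KCNMA1, a calcium-activated potassium channel, had 10 of 53, ZNF385D, a zinc finger gene, 10 of 25, CACNA2D3, a calcium channel subunit, 9 of 38, and PDE1C, a phosphodiesterase, and THRB, a thyroid hormone receptor, 8 of 31 and 8 of 33. Among falling peaks PLXNA4, a semaphorin receptor, had 12 of 50, DISC1 11 of 37, SND1 9 of 49, CPA6 8 of 23, KCND2, a potassium channel, 8 of 11 and KIAA0040 8 of 10. The median of the called PLXNA4 peaks was 8.93 CPM at 5 uM, 5.43 at 10 uM, 3.71 at 20 uM, 2.98 at 40 uM, 2.51 at 80 uM, 2.84 at 160 uM and 1.66 at 320 uM. None of these 12 genes had called peaks in both directions. Without T320, 5 of the CDH13 peaks and 7 of the DISC1 peaks passed the test, against 1 of PLXNA4 and none of PDE1C and SND1. ZNF385D, CACNA2D3 and THRB lie on chromosome 3, PLXNA4, SND1 and KCND2 on chromosome 7 and DISC1 and KIAA0040 on chromosome 1, and each of these chromosomes held windows that shifted as a whole. PLXNA4 lies in such a window, chromosome 7 from 130 to 135 Mb (median slope -0.10). With the median shift of each 5 Mb window removed, 7 of the 12 PLXNA4 peaks passed on the adjusted p alone. For DISC1, SND1, CPA6, KCND2 and KIAA0040 these counts were 8, 5, 4, 4 and 7. Of the rising peaks, 10 of CDH13 and 4 of THRB passed.

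Large regions of the genome shifted together. In 573 windows of 5 Mb with at least 20 peaks, the median slope ran from -0.13 to 0.15. It was above 0.1 in 15 windows, 11 of them on chromosome 3, 3 on chromosome 6 and 1 on chromosome 19. It was below -0.1 in 17, 7 of them on chromosome 1, 5 on chromosome 7, 3 on chromosome 19 and 2 on chromosome 2. The 5 highest were chromosome 19 from 50 to 55 Mb, chromosome 3 from 20 to 25 Mb, chromosome 6 from 80 to 85 Mb, chromosome 3 from 25 to 30 Mb and chromosome 6 from 120 to 125 Mb. The 5 lowest were chromosome 2 from 215 to 220 Mb, chromosome 1 from 115 to 120 Mb, chromosome 19 from 25 to 30 Mb, and chromosome 1 from 120 to 125 and from 225 to 230 Mb.

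The windows took different courses. On chromosome 3 from 20 to 25 Mb, the median of 185 peaks, relative to each peak's mean, was -0.28 log2 units at 5 uM, -0.21 at 10 uM, -0.23 at 20 uM, -0.095 at 40 uM, 0.14 at 80 uM, 0.14 at 160 uM and 0.55 at 320 uM. The window of chromosome 19 from 50 to 55 Mb made most of its rise early, from -1.06 at 5 uM to -0.15 at 10 uM and 0.41 at 40 uM, and had -0.023 at 160 uM. On chromosome 2 from 215 to 220 Mb the median fell from 0.65 at 5 uM to -0.45 at 40 uM, was 0.18 at 160 uM and -0.40 at 320 uM. In 24 of the 32 windows beyond 0.1, T160 lay back from T80 in the direction of T5. The share over all 573 windows was not counted, so this does not set the 32 apart. In all 32 the median slope had the same sign in the 2 replicates fitted apart, although these libraries had also picked the windows.

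**Figure D5:**
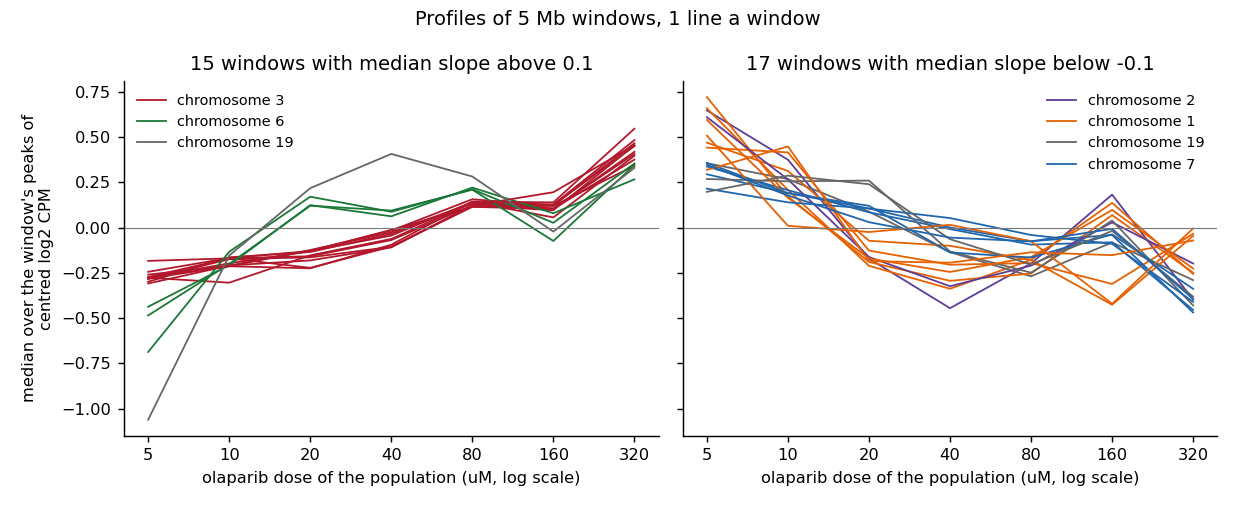
Median over the peaks of a 5 Mb window of log2 CPM relative to each peak's mean (vertical axis) against the dose in uM on a log2 scale (horizontal axis), 1 line for each of the 15 windows with a median slope above 0.1 (left) and the 17 below -0.1 (right), coloured by chromosome. The chromosome 3 lines run together and jump at T320, and several lines of chromosomes 1 and 2 return upward at T160. Other chromosome 1 lines go down there, such as 180 to 185 Mb, with -0.076 at T80 and -0.42 at T160.

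The windows above 0.1 held 2737 of the 105048 peaks and 363 of the rising calls (10.3%), and those below -0.1 held 3991 peaks and 390 of the falling calls (15.8%). After the median shift of each window was removed, 3102 peaks rose and 1926 fell, of which 2536 and 1437 were among the earlier calls. Of the steepest promoters, 8 of 10 rises and 9 of 10 falls were still called after this step. CADPS and STAC on chromosome 3 and MCF2L were not (adjusted p = 0.102, 0.101 and 0.0519). The HRH1 slope went from 0.46 to 0.35 and the VGLL4 slope from 0.40 to 0.29. By chromosome, rising calls were most frequent on chromosome 6 (6.11% of its peaks), 3 (5.92%) and 18 (5.38%). Falling calls were most frequent on chromosomes 7 (4.26%), 1 (4.06%) and 13 (3.85%).

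The 3 rising and 3 falling distal peaks with the smallest p followed the dose closely. A peak at chr3:22474302-22476256, over 50 kb from any protein-coding gene, had 3.68 and 2.12 CPM at 5 uM, 4.30 and 4.93 at 10 uM, 7.33 and 5.91 at 20 uM, 7.41 and 8.94 at 40 uM, 12 and 15.3 at 80 uM, 15.8 and 16.6 at 160 uM and 25.1 and 34.8 at 320 uM (slope 0.55 ± 0.041 (SE), edgeR adjusted p = 0.00240). Neighbouring populations from T40 on did not overlap. With the window shift removed its slope was 0.40. Another on the same arm at chr3:35536892-35537892 rose from 0.705 to 9.74 CPM (slope 0.61), and one at chr8:128776305-128777573 rose from 10.8 to 42.7 CPM (slope 0.34).

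Of the falling ones, the steepest was at chr7:153080553-153082061, with 26.6 and 26.2 CPM at 5 uM, 22.3 and 23.1 at 10 uM, 12.4 and 7.51 at 20 uM, 7.21 and 4.95 at 40 uM, 6.80 and 3.93 at 80 uM, 4.15 and 3.14 at 160 uM and 2.49 and 1.39 at 320 uM (slope -0.65 ± 0.054 (SE), edgeR adjusted p = 0.00240). A peak at chr11:37370340-37371683 fell from 12.7 to 1.30 CPM (slope -0.56). A peak at chr11:45091842-45092572, nearest to PRDM11, fell from 17.2 to 2.30 CPM (slope -0.47). All 6 of these distal peaks were still called after any single population was left out.

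No slope was called at the promoters of PARP1, BRCA2, ABCB1, SLFN11, CD24 and CD44, genes that bear on the drug and on the sort. PARP1, the main target of olaparib, had 19.8 and 21.7 CPM at 5 uM, 14.6 and 20.7 at 10 uM, 18.3 and 17.8 at 20 uM, 16.1 and 19.5 at 40 uM, 15 and 19 at 80 uM, 14.5 and 15.8 at 160 uM and 11.6 and 16.7 at 320 uM (slope -0.076 ± 0.031 (SE), edgeR adjusted p = 0.132). The T10 libraries alone spanned most of this range. With the window shift of chromosome 1 removed, the slope was 0.051. A distal peak nearest to PARP1, at chr1:226349131-226350795, did fall, from 15.5 CPM in T5 to 7.31 in T10 and 3.68 in T320 (slope -0.33 ± 0.064 (SE), adjusted p = 0.0124, and -0.21 with the window shift removed). BRCA2 stayed between 20.7 and 31.1 CPM in the 14 libraries with no detectable slope (-0.018 ± 0.028 (SE), adjusted p = 0.703).

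ABCB1, the drug efflux pump P-glycoprotein, was higher in the middle of the range. Its promoter had 6.70 and 4.91 CPM at 5 uM, 10.2 and 7.28 at 10 uM, 12.3 and 12.5 at 20 uM, 14 and 14.6 at 40 uM, 13.4 and 17.2 at 80 uM, 10.8 and 10.6 at 160 uM and 11.4 and 12 at 320 uM. The slope was 0.15 ± 0.069 (SE; edgeR adjusted p = 0.178) and the bend downward passed its test (-0.091, adjusted p = 0.0455). With the window shift of chromosome 7 removed, ABCB1 was called rising (0.25, adjusted p = 0.0342). SLFN11, which blocks stalled replication forks, had 2.95 CPM in T5, 6.54 in T80 and 5.59 in T320 (slope 0.089, adjusted p = 0.394).

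The sort markers both had their lowest promoter level in T5. CD24 had 6.88 and 5.99 CPM at 5 uM, 9.34 and 7.36 at 10 uM, 11.3 and 9.94 at 20 uM, 12.9 and 10.2 at 40 uM, 11.3 and 10.4 at 80 uM, 7.74 and 9.42 at 160 uM and 12.8 and 12.2 at 320 uM (slope 0.11 ± 0.048 (SE), edgeR adjusted p = 0.15; 0.11 and adjusted p = 0.0377 with the replicate block). The block fit takes the libraries of a population as separate dose points, so its p-value may be too small. CD44 went from 12.9 and 13.9 CPM in T5 to 23 and 29.8 in T80 and 21.8 and 30.4 in T320. Its slope of 0.15 ± 0.040 (SE) passed the test (adjusted p = 0.0368) but not the slope minimum.

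In 23 gene lists almost no promoter was called. Each gene was read at its strongest promoter peak, or gene-end peak where no start is given, against 0.392% and 0.419% of all genes called. The integrated stress and unfolded protein response had 0 of 27 measured genes called, AP-1 and immediate early genes 0 of 20, mesenchymal genes 0 of 24, epithelial genes 0 of 20, homologous recombination and PARP genes 0 of 41, and glycolysis and hypoxia genes 0 of 27. In the same edgeR test, 3, 1, 2, 1, 1 and 3 of these genes passed on the adjusted p alone with a positive slope, and 0, 0, 1, 0, 1 and 0 with a negative one. Over all genes 2.62% and 1.37% did so. Among them were the stress genes TRIB3 (slope 0.16), SLC7A11 (0.15) and PPP1R15A (0.13), the intermediate filament gene VIM (0.13), the keratin gene KRT18 (0.18), and the glycolysis genes GAPDH (0.15), PFKFB4 (0.13) and PFKFB3 (0.13). TAGLN, a smooth muscle actin-binding protein (-0.16), was lower at higher doses. SLC7A11, KRT18 and TAGLN were read at gene-end peaks.

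The list of Mullerian and serous ovarian lineage genes had the lowest median slope of the 23 apart from the hepatocyte markers, -0.073 over 16 genes against 0.020 over all genes, with 12 of 16 slopes negative and none called. With the window shift removed, 2 were called falling, the kallikrein genes KLK6 and KLK8. Both lie in the 1 window of chromosome 19 with a median slope above 0.1. Removing the rise of that window lowers their slopes, and neither was called without this step. Whether these 2 genes moved independently of each other was not tested. Its median stayed negative, from -0.098 to -0.073, under the 6 scalings compared. KLK8, a kallikrein read at a gene-end peak, had 32.5 CPM in T5, 44.4 in T10 and 14.9 in T320 (slope -0.25, adjusted p = 0.0110). SOX17, a transcription factor of this lineage, was read at a gene-end peak with 22.9 CPM in T5, 27.3 in T20 and 12.2 in T320 (slope -0.16, adjusted p = 0.0582). BCAM, a laminin receptor, had 73.5 CPM in T5, 60.3 in T160 and 27.8 in T320 (slope -0.18, adjusted p = 0.0595, and -0.075 with the window shift removed). PAX8, the factor that defines Mullerian epithelium, stayed between 28.5 and 34.9 CPM in the summed counts (slope 0.023, adjusted p = 0.649), so the lineage genes did not move as one.

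The remaining lists also held few calls. IGF2, a growth factor read at a gene-end peak, was the 1 called gene of 29 in the list of receptor tyrosine kinases and ligands. It had 18.9 and 25.6 CPM at 5 uM, 35.6 and 30.4 at 10 uM, 21.1 and 18.7 at 20 uM, 22.3 and 16.9 at 40 uM, 20.7 and 15.2 at 80 uM, 11.8 and 13.6 at 160 uM and 7.54 and 2.42 at 320 uM (slope -0.34 ± 0.079 (SE), edgeR adjusted p = 0.0235; -0.21 and adjusted p = 0.0741 without T320, and also not called without T10). DNMT3A, a DNA methyltransferase, had a slope of -0.21 (adjusted p = 0.0446), and ABCG1, a sterol transporter read at a gene-end peak, one of 0.20 (adjusted p = 0.0167). The lists of drug efflux, Hippo, interferon, NF-kB, p53, cell cycle, cholesterol, Wnt and chromatin genes had no called gene, with median slopes between 0.0076 and 0.037. With scaling factors from promoter peaks, the medians of the homologous recombination, receptor kinase, Hippo, interferon, NF-kB, cell cycle and chromatin lists turned negative, from -0.0043 to -0.015. The 15 constitutive genes had a median slope of 0.065, with 14 of 15 slopes above 0 and none called, and from 0.032 to 0.065 under the 6 scalings.

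Markers of other cell types gave these values. Blood markers had 6 of 13 genes measured and 1 called rising, CD68, a lysosomal glycoprotein of macrophages, which went from 24.3 and 28.9 CPM in T5 to 97.3 and 135.7 in T320 (slope 0.29, adjusted p = 0.0200; 0.19 with the window shift removed). Endothelial markers had 7 of 10 measured and TIE1 falling (-0.29, adjusted p = 0.0119). Neural markers had 9 of 10 measured and OLIG2 rising (0.25, adjusted p = 0.0239). Hepatocyte markers had 4 of 9 measured, with APOA1 and APOB falling (-0.26 and -0.27, adjusted p = 0.0155 and 0.0189). Fibroblast and mesothelial markers had 6 of 10 measured and none called. The markers not measured had no promoter or gene-end peak. OLIG2, APOA1 and APOB were read at gene-end peaks, and all 5 of these calls ended without T320 and also with the window shift removed. Accessibility of a marker's promoter is no count of such cells.

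Peaks near the list genes held more calls than their promoters, as over all genes. This count was added after the promoter counts were seen. Of all 82565 peaks within 50 kb of a protein-coding gene, 3.03% rose and 2.17% fell. Near mesenchymal genes 18 of 187 peaks rose and 2 fell (9.63% and 1.07%), with 6 near TGFBI, 3 near SNAI1, 2 near the matrix protein gene TNC and 2 near CD44. Near glycolysis and hypoxia genes 15 of 171 rose and 3 fell (8.77% and 1.75%), led by PFKFB3 with 5, HIF1A with 2 and VEGFA with 2. Near AP-1 and immediate early genes 9 of 132 rose and 1 fell, with 4 near DUSP5, a phosphatase of ERK, and 2 each near DUSP1 and KLF6. Near stress response genes 9 of 122 rose and 2 fell, among them 2 near CEBPB. Near epithelial genes 2 of 123 rose and none fell, and near lineage genes 1 of 135 rose and 3 fell. Near homologous recombination and PARP genes 5 of 181 rose and 4 fell, 2 of the falls near PARP1. Near cell cycle genes 1 of 114 rose and 5 fell, 2 of these near CCNE1, the cyclin that drives entry into S phase. CCNE1 lies on chromosome 19 from 25 to 30 Mb, a window that fell as a whole (median slope -0.12). With the window shift removed, 3 peaks fell near cell cycle genes, and without T320 2. After the window shift was removed, 18 peaks rose near mesenchymal genes and 12 near glycolysis and hypoxia genes, and without T320 2 and 7. Near AP-1 and immediate early genes 0 peaks rose without T320 in edgeR's test. Near lineage genes 5 peaks fell with the window shift removed, 5 without T320, 6 with scaling from promoter peaks and 7 with the replicate block. Peaks of 1 gene share its locus and are not independent of each other.

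A bend in the trend was asked with the square of log2 dose. In edgeR's test 2136 peaks bent up (2.03%) and 2581 bent down (2.46%). With the 14 libraries fitted singly and the replicate block, these were 8513 and 12616, and without T320 9531 and 9657, so the number of bending peaks is uncertain. Without T5, without T40 or without T80 edgeR called 0 bends in either direction, although 6358, 8817 and 10760 peaks bent up at an unadjusted p under 0.05 and 6006, 8240 and 10271 bent down. Without T20 it called 0 and 1. DESeq2 on all 7 populations called 4615 and 5279. Peaks bending up had a median of 9.26 CPM in T5, 3.64 in T40 and 7.96 in T320, and peaks bending down 9.06, 20.0 and 11.3 CPM. HHIPL2 had the largest upward bend among promoters. It had 32.2 and 37.5 CPM at 5 uM, 14.2 and 12.1 at 10 uM, 11.8 and 6.74 at 20 uM, 8.31 and 8.58 at 40 uM, 13.5 and 9.03 at 80 uM, 9.85 and 11.1 at 160 uM and 22.8 and 33.7 at 320 uM (bend 0.22, adjusted p = 0.0118), so that T320 was back near T5. GPR183, an oxysterol receptor of immune cells, had 9.30 CPM in T5, 1.87 in T40 and 4.59 in T320. The peak shared by FAM133A and NAP1L3 had 5.07, 1.64 and 3.35 CPM. NAP1L5, an imprinted gene, bent down with 3.55 CPM in T5, 8.55 in T40 and 0.912 in T320. FABP7, a fatty acid-binding protein, had 2.20, 21.6 and 15.4 CPM, and AMTN, an enamel protein, 1.12, 5.60 and 2.27 CPM. All 6 of these bends lost their call in at least 1 of the fits without a single population.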

How the data were processed

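ATAC-seq libraries of about 50000 cells were made with the Omni-ATAC protocol, per the labels' protocols. The authors' deposited table holds raw read counts in consensus peaks. The submitters' processing notes name MACS2, Bowtie2, SAMtools, Trim Galore, DESeq2, Picard, deepTools 3.1 and 3.5.1, HOMER 4.1 and GRCh38, with no role or order. 6 columns of other cells were not used. Replicates were summed, and 7 sums were fitted against log2 dose with edgeR 4.0.16 (TMM, robust quasi-likelihood, R 4.3.3), with Benjamini-Hochberg adjustment over all peaks, 5 residual degrees of freedom and a slope minimum of 0.25. A bend was fitted as the centred square of log2 dose. On simulated counts for the 105048 peaks of the dose trend, 38% of slopes of 0.3 and 97% of slopes of 0.5 were called, and 7 of 104848 unchanged peaks. The simulation drew each peak independently, with straight slopes and no shift shared by a window, so its rates need not hold in the data. Alternatives were other scalings, DESeq2 1.42.0, limma 3.58.1, a stricter filter, linear dose, single libraries with and without a replicate block, each replicate alone, and leaving out each population or library. The differences between replicates 1 and 2 correlated between populations in all 21 pairs (0.277 to 0.588), so the numbers were taken to pair the libraries.

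A gene was read at its promoter peak with the highest mean CPM. 11959 of 15812 protein-coding genes with a RefSeq start had one, and 2835 of 4158 genes without a start were read at a peak within 1 kb of either gene end. The genes named in the text are the 10 steepest called promoter peaks in each direction with at least 2 CPM in the highest population, the 3 distal peaks of smallest p in each direction, the 3 largest bends each way, called list genes and a set named in any case. Genes shown for their other peaks were picked after their values were seen. The members and lists were chosen with earlier results of these data known.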

Additional observations from a re-analysis of the deposited data

How the results depend on the processing

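The trend counts moved by over 1.5 times mainly when a population was left out. Without T320, 640 peaks and 15 promoter peaks rose and 1033 and 24 fell. Without T5, 1129 peaks and 40 promoter peaks fell. Without T10, 1632 peaks fell, 39 promoter peaks rose and 33 fell. Without T80, 1394 peaks and 37 promoter peaks fell, and without T160, 4426 peaks fell, 101 promoter peaks rose and 109 fell. Linear dose gave 562 falling peaks. With no slope minimum 6584 peaks and 348 promoter peaks rose and 4839 and 197 fell. Replicate 1 alone, the shallower libraries, gave 2173 and 38 rising and 1633 and 31 falling. The replicate block gave 3852 rising and 2985 falling peaks, with 65 and 61 promoter peaks, and beyond the bends it ended no call of the 20 steepest promoters. It takes the libraries of a population as separate dose points, so its calls may be too many. Bends up and down numbered 7108 and 1432 with scaling from promoter peaks, 4615 and 5279 with DESeq2, 5231 and 7129 with 14 single libraries, 8513 and 12616 with the replicate block, 649 and 1120 in replicate 1 alone, and 924 and 1461 in replicate 2 alone. Bends down numbered 1505 with an offset trended on abundance, 1453 with the window offset and 3907 with limma. Bends were 892 and 1344 without T10, 5603 and 6265 without T160, 9531 and 9657 without T320, 0 and 1 without T20, and 0 and 0 without T5, T40 or T80. Leaving out 1 library gave 2518 to 4001 rising and 1309 to 3485 falling peaks, 43 to 70 rising and 31 to 78 falling promoter peaks, and 292 to 4410 bends up and 321 to 6209 bends down. The cause of these moves was not tested. Of the 47 named peaks, no called slope changed sign in any setting run, although the settings share the libraries behind the calls. Slopes that were not called did so at PARP1, BRCA2, AMTN and HHIPL2 with the window offset, at NAP1L5 and AMTN without T320 and at HHIPL2, GPR183, SLFN11 and BRCA2 without T5, among other settings. Leaving out 1 library ended a call of a named peak 19 times. Leaving out a library or population also removes depth, so a lost call is not a smaller slope.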
